A study of Mus musculus with 49 samples.

Results

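10 genes that hold back the cell cycle were followed in CD8+ T cells from mouse spleen, the cytotoxic arm of the T cells, before and during culture with IL-2. They were chosen by symbol as 5 CDK inhibitors (*Cdkn1a*, *Cdkn1b*, *Cdkn2a*, *Cdkn2c*, and *Cdkn2d*), 3 pocket proteins (*Rb1*, *Rbl1*, and *Rbl2*), and 2 BTG genes (*Btg1* and *Btg2*), of 23992 gene symbols in the files. All 10 were measured, and all 10 were among the 15566 genes with enough reads to be tested. The cells came from mice of 2 lines on a C57BL/6J background. In the *Stat5a* line the KI cells carry STAT5A whose activating tyrosine is replaced by phenylalanine (Y694F), and in the *Stat5b* line they carry STAT5B with the matching exchange (Y699F), in the homozygous state in every cell of the animal. The controls were WT littermates of the same line. Ages ran from 8 to 24 weeks, and neither sex was left out. RNA was taken before culture (0 hr) and after 4, 24, and 48 hr of culture in recombinant human IL-2 at 500 IU/ml. Line, genotype, and time make 16 groups of 3 libraries. 1 library of the 48, the third replicate of *Stat5a* KI cells at 4 hr, was left out, so that this group has 2 libraries. The mutations exchange a codon, and counts per gene therefore do not check which allele a library carries.

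A T cell that rests in the spleen is kept out of division by several layers of control. CDK inhibitors bind cyclin-dependent kinases: *Cdkn1a* (p21) and *Cdkn1b* (p27) act on cyclin-CDK2 complexes, whereas the INK4 proteins of *Cdkn2a* (p16), *Cdkn2c* (p18), and *Cdkn2d* (p19INK4d) block CDK4 and CDK6. The kinases in turn phosphorylate the pocket proteins RB (*Rb1*), p107 (*Rbl1*), and p130 (*Rbl2*), which otherwise hold E2F transcription factors, and with them the genes of DNA replication, in check. BTG1 and BTG2 recruit the CCR4-NOT deadenylase to mRNAs and are known for keeping T cells quiescent. IL-2 acts through JAK kinases and phosphorylated STAT5, and the amount of p27 in T cells is known to be set largely by protein degradation, which RNA does not show.

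The start regions of 3 members that moved differently are printed to show short motifs that match the letters known for E2F, FOXO, and p53. Each window runs from 250 bases before the transcription start to 50 bases after it, is taken from RefSeq on GRCm38.p6, and is written 5′ to 3′ on the strand of the gene, with the matched letters in capitals. In *Btg1* (+ strand, chr10:96616751-96617050) the capitals mark GTAAACA, the FOXO letters, read on the opposite strand. In *Cdkn1a* (+ strand, chr17:29090729-29091028) they mark 2 copies of CATG with 6 bases between them, the core of a p53 element. In *Rbl1* (- strand, chr2:157204485-157204784) they mark TTTNGCGC, the E2F letters.
*Btg1*: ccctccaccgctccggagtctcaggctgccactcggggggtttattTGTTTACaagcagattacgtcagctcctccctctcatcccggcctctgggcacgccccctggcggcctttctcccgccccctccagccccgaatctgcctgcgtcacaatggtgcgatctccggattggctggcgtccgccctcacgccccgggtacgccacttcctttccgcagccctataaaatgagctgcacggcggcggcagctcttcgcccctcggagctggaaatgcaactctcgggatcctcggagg
*Cdkn1a*: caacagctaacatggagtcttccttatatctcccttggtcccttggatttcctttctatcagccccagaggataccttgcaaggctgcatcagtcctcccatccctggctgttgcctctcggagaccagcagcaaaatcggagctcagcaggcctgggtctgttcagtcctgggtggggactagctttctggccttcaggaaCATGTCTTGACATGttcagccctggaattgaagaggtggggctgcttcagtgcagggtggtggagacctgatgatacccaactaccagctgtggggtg
*Rbl1*: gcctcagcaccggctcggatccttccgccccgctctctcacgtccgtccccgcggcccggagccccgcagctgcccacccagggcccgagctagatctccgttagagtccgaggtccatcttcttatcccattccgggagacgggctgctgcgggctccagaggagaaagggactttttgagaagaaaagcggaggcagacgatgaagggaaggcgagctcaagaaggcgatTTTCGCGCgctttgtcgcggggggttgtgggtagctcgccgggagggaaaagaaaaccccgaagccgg
Windows were at hand for 9 of the members, and both strands were searched in each. The FOXO letters were present in 3.65% of all 32851 windows and in 1 member, 204 bases before the start of *Btg1*. The paired CATG was present in 0.712% of windows and in 1 member, 48 bases before the start of the *Cdkn1a* transcript used here. The E2F letters were present in 1.38% of windows and in 2 members, 18 bases before the start of *Rbl1* and 244 bases before the second first exon of *Cdkn2a*. TTTGAA, the CHR element of late cell cycle genes, was present in 17.9% of windows and among the members in *Rbl2*, 201 bases before the start. The STAT5 letters TTCNNNGAA were present in 8.3% of windows and in 0 members, which says only that these letters are not in these windows. The motifs do not overlap one another in these windows, and a match of letters is not a measured binding site.

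Each library had between 17369112 and 60200653 reads on the longest transcripts of the genes (median 41410666). Levels are given as RPKM, which scales reads to transcript length and to the mapped reads of the library. The second replicate of *Stat5a* WT cells at 4 hr stood apart: 44.9% of its mapped reads fell on these transcripts, against 68.7% to 84.4% in the other 46 libraries. Its RPKM were the lowest of its group for all 10 members, and RPKM divides by all mapped reads. The defining markers of CD8 T cells were present throughout, with *Cd8a* at 81.0 to 342.5 RPKM and *Cd3e* at 153.2 to 298.7 RPKM. Markers of other cells were present as well, at 2.54 to 121.7 RPKM for *Cd79a* (B cells), 0 to 12.5 for *Csf1r* (macrophages), 0.576 to 19.5 for *Cd4*, and 0.370 to 10.9 for *Ncr1* (NK cells).

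*Btg1* was the most abundant member and *Cdkn2a* the scarcest. Over the 47 libraries *Btg1* ranged from 37.1 to 346 RPKM, and *Btg2* from 20.0 to 88.4 with a median of 61.9. *Cdkn1b* had a median of 51.2 RPKM, *Cdkn2d* 27.7, *Rbl2* 18.6, and *Rbl1* 14.2. The remaining CDK inhibitors and *Rb1* were lower, at medians of 8.20 RPKM for *Rb1*, 6.11 for *Cdkn2c*, 6.05 for *Cdkn1a*, and 0.455 for *Cdkn2a*. Members differed in how much they moved. No ratio of groups is given for *Cdkn2a*, whose lowest group had 0 to 6 reads a library. Of the others, the highest group mean was 8.15 times the lowest for *Btg1* and 7.90 times for *Cdkn2c*, against 1.57 times for *Rb1*. When the 16 groups were put in order of their means, most neighbours overlapped in their libraries. Of the 15 neighbouring pairs, 5 were apart for *Btg2*, 4 each for *Btg1*, *Rbl1*, and *Cdkn2a*, and 1 each for *Cdkn1a* and *Rb1*.

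**Figure D1:**
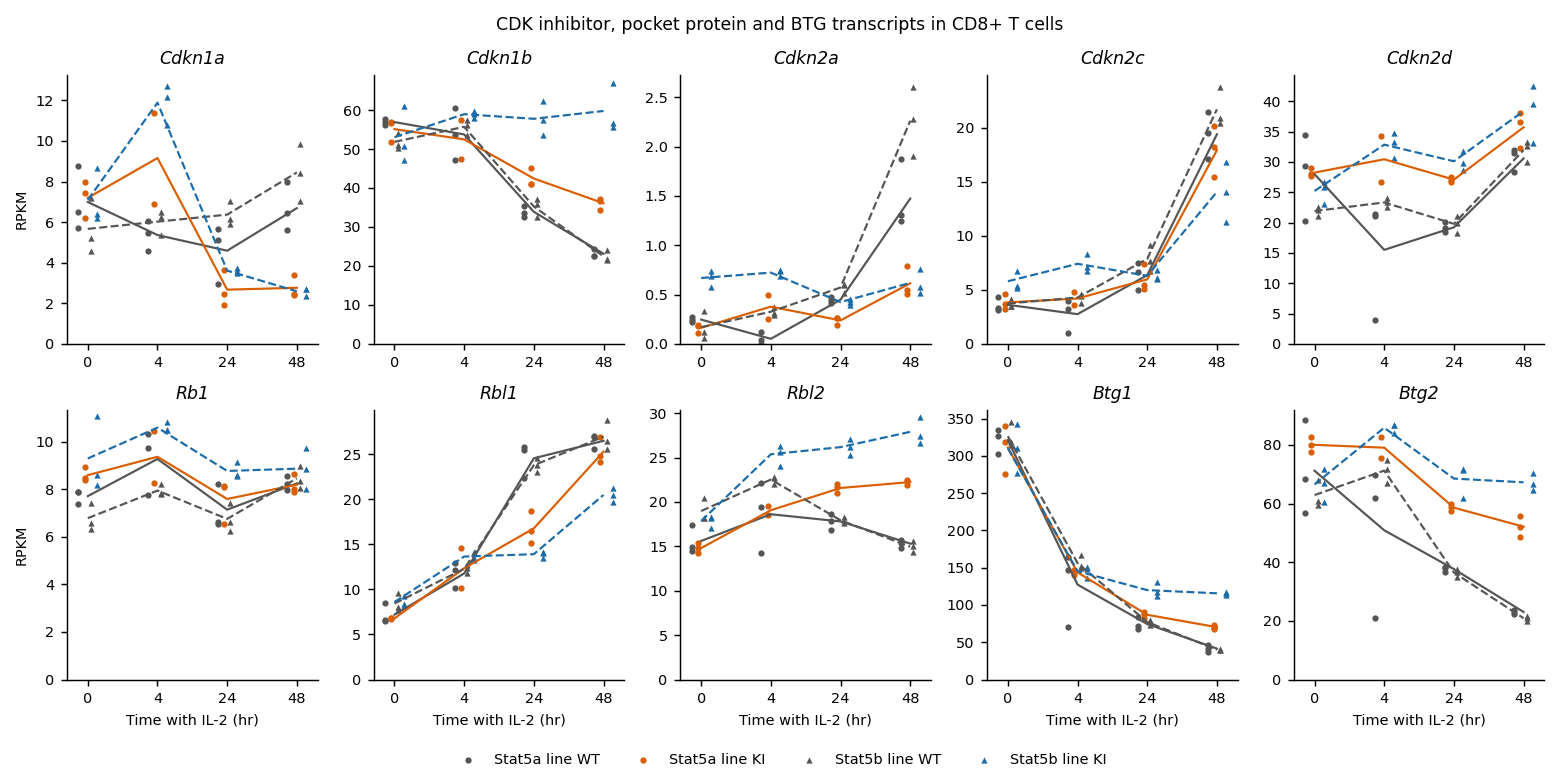
RPKM of each member (y axis, from 0) against time with IL-2 (x axis, evenly spaced categories) in every library used. Points are libraries, lines join group means, circles are the *Stat5a* line and triangles the *Stat5b* line, and WT is grey. *Btg1* drops by 4 hr in both lines and genotypes, and the *Stat5b* KI points of *Cdkn1b* stay between 47.2 and 66.9 at all times.

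The first comparison asks how the members change in WT cells over time with IL-2. No group was cultured without IL-2, so IL-2 and time in culture cannot be told apart in any change from 0 hr. At 48 hr the BTG genes and *Cdkn1b* had fallen, *Cdkn2c*, *Cdkn2a*, and *Rbl1* had risen, and the other 4 members were not called, in both lines. A gene counts as called where the quasi-likelihood test of edgeR, adjusted by Benjamini-Hochberg over all genes, gave an adjusted p up to 0.05 and the change was 2-fold or more. All adjusted p below are from edgeR, and ± is the SE of a log2 fold change. Of the 10 members, 6 were called in the *Stat5a* line, where 36.6% of all genes were (14.3% higher and 22.3% lower), and 6 in the *Stat5b* line, where 35.3% were (14.6% higher and 20.7% lower). In bulk RNA, fewer cells of a type and less RNA per cell cannot be told apart. Markers of other cells also fell in WT cells by 48 hr. In both lines 8 of 8 B cell, 9 of 11 myeloid, and 6 of 6 erythroid markers were called lower. Of 7 CD8 T cell markers 0 were called by edgeR. The part of other cells in the members' changes from 0 hr was not tested.

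*Btg1* had the largest drop among the members. WT libraries of the *Stat5a* line had 326, 334, and 303 RPKM at 0 hr and 40.7, 37.1, and 46.7 at 48 hr. *Stat5b* WT libraries went from 346, 318, and 315 to 39.7, 40.3, and 40.1 RPKM. No library at 48 hr came near any at 0 hr, and the log2 fold changes were -3.16 ± 0.11 (adjusted p = 4.4e-24) and -3.20 ± 0.11 (adjusted p = 3e-24). *Btg1* had already fallen at 4 hr, at log2 fold changes of -1.35 ± 0.10 and -1.24 ± 0.10 (adjusted p = 5e-14 and 6.5e-13). *Btg2*, its paralog, was not called at 4 hr in either line. In the *Stat5a* line it had passed the adjusted p by then, at -0.54 ± 0.14 (adjusted p = 0.0011), where the libraries overlap with those of 0 hr and include the one that stood apart. It stood at 68.1, 59.6, and 61.0 RPKM at 0 hr and at 75.0, 71.8, and 66.9 at 4 hr in the *Stat5b* line, ranges that overlap, and then at 37.6, 35.1, and 36.8 at 24 hr and 21.1, 21.7, and 20.0 at 48 hr. Its log2 fold change at 48 hr was -1.76 ± 0.14 there and -1.84 ± 0.14 in the *Stat5a* line (adjusted p = 1.2e-13 and 4.4e-14).

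*Cdkn1b*, the inhibitor of cyclin-CDK2, kept its level for 4 hr and then declined. WT libraries of the *Stat5a* line had 57.8, 56.1, and 56.9 RPKM at 0 hr and 53.6, 47.1, and 60.6 at 4 hr, with overlapping ranges. They had 32.6, 35.4, and 33.6 RPKM at 24 hr and 22.5, 22.6, and 24.3 at 48 hr. The values at 48 hr lay below all earlier ones, at a log2 fold change of -1.51 ± 0.10 (adjusted p = 4.9e-16), and that of the *Stat5b* line was -1.38 ± 0.10 (adjusted p = 4.9e-15).

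*Cdkn2c*, an INK4 inhibitor, moved the opposite way. It was at 3.18, 3.30, and 4.38 RPKM at 0 hr in the *Stat5a* line, at 6.67, 7.46, and 4.96 at 24 hr, and at 19.6, 21.5, and 17.2 at 48 hr. Most of the rise came between 24 and 48 hr, and the groups at 48 and 0 hr did not overlap. The log2 fold changes at 48 hr were 2.21 ± 0.19 and 2.36 ± 0.19 in the *Stat5a* and *Stat5b* lines (adjusted p = 9.7e-13 and 2e-13). *Rbl1*, the pocket protein p107, rose earlier, from 6.48, 6.65, and 8.48 RPKM at 0 hr to 13, 10.2, and 12.1 at 4 hr, 22.4, 25.8, and 25.5 at 24 hr, and 26.9, 27, and 25.6 at 48 hr in the *Stat5a* line. Its log2 fold change was 1.60 ± 0.11 at 24 hr and 1.67 ± 0.11 at 48 hr there, and 1.31 ± 0.11 and 1.5 ± 0.11 in the *Stat5b* line (adjusted p of 5.1e-13 or lower). *Cdkn2a* rose from very few reads, with 3 to 19 per WT library at 0 hr over both lines. Its levels were 0.277, 0.217, and 0.244 RPKM at 0 hr and 1.25, 1.30, and 1.87 at 48 hr for the *Stat5a* line, and 0.117, 0.331, and 0.0595 against 1.91, 2.60, and 2.28 for the *Stat5b* line. The libraries did not overlap, and the log2 fold changes were 2.37 ± 0.33 and 3.55 ± 0.36 (adjusted p = 7.5e-08 and 3.3e-11). The transcript counted is the one that encodes p19ARF. The p16 transcript of the same gene shares all but its first exon, so reads mostly cannot be assigned to either protein.

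*Cdkn1a*, *Cdkn2d*, *Rb1*, and *Rbl2* were not called at any time in WT cells, though each passed the adjusted p at some time in the *Stat5a* line. *Rb1* lay between 6.24 and 10.3 RPKM in all 24 WT libraries. *Cdkn1a* at 48 hr differed from 0 hr by -0.27 ± 0.21 (*Stat5a* line) and 0.40 ± 0.21 (*Stat5b* line) on the log2 scale (adjusted p = 0.25 and 0.093). At 24 hr *Cdkn1a* was lower than at 0 hr without overlap in the *Stat5a* line, at -0.78 ± 0.21 (adjusted p = 0.0021), and at -0.02 ± 0.21 in the *Stat5b* line (adjusted p = 0.93). *Cdkn2d* in *Stat5a* WT cells was at -0.93 ± 0.20 at 4 hr, with overlap, and at -0.71 ± 0.20 at 24 hr, without (adjusted p = 0.00013 and 0.0019). Its libraries at 4 hr had 21.1, 3.99, and 21.4 RPKM, the lowest being the one that stood apart. *Rbl2*, the pocket protein of resting cells, differed at 48 hr by -0.23 ± 0.06 (*Stat5a* line) and -0.52 ± 0.06 (*Stat5b* line). Both were past the adjusted p (0.0011 and 2.4e-09) but short of 2-fold. At 4 hr *Rbl2* had the other sign in the *Stat5a* line, at 0.29 ± 0.06 with overlap (adjusted p = 0.00015). In the *Stat5b* line it was at 0.07 ± 0.06 (adjusted p = 0.34).

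Fewer members were called at the earlier times. WT cells of the *Stat5a* line had 2 members called at 4 hr (21.4% of all genes) and 3 at 24 hr (22.9%), and *Stat5b* WT cells 1 at 4 hr (15.7%) and 3 at 24 hr (22.5%). *Btg1* was among them each time. The other call at 4 hr was *Cdkn2a* in the *Stat5a* line, at 2, 0, and 6 reads, where 3 reads were taken as the floor, and it was lost when only the groups compared were fitted (adjusted p = 0.073). Without the second *Stat5a* WT library of 4 hr, *Btg1* was at -1.22 ± 0.10 on the log2 scale and 2 members were called.

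The second comparison asks which members differ between KI and WT cells of the same line. In KI cells at 48 hr *Btg2* was higher and *Cdkn1a* and *Cdkn2a* were lower than in WT cells of the same line, in both lines, and *Btg1* and *Cdkn1b* were also higher in the *Stat5b* line. For the *Stat5a* line 3 members were called (8.78% of all genes, 6.35% higher and 2.43% lower), and for the *Stat5b* line 5 (26.3% of all genes, 16.5% higher and 9.81% lower). By adjusted p alone, 6 members passed in the *Stat5a* line against 44.3% of all genes, and 8 in the *Stat5b* line against 63.6%. The median log2 fold change of the members was 0.06 and 0.09, and that of all genes 0.04 and 0.10.

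*Cdkn1a* (p21) was lower in every KI library than in any WT library at 48 hr. WT cells of the *Stat5a* line had 5.6, 6.47, and 8.0 RPKM and KI cells 3.40, 2.43, and 2.46. WT cells of the *Stat5b* line had 8.43, 9.87, and 7.04 RPKM and KI cells 2.73, 2.69, and 2.36. The log2 fold changes were -1.33 ± 0.22 (adjusted p = 5.5e-06) and -1.79 ± 0.22 (adjusted p = 9.6e-09). At 4 hr the difference had the other sign. In the *Stat5a* line it was 0.47 ± 0.24, did not pass (adjusted p = 0.14), and had no overlap of libraries. It passed the adjusted p in the *Stat5b* line, with 12.1, 12.7, and 10.8 RPKM in KI against 6.24, 5.35, and 6.48 in WT cells, without overlap and at a log2 fold change of 0.87 ± 0.21 (adjusted p = 0.0019, short of 2-fold). At 24 hr it was -0.85 ± 0.22 in each line (adjusted p = 0.0056 in the *Stat5a* and 0.0013 in the *Stat5b* line), again short of 2-fold. The libraries at 24 hr overlapped in the *Stat5a* line (KI up to 3.62 and WT from 2.97 RPKM) but not in the *Stat5b* line. *Cdkn2c* of the *Stat5b* line also passed the adjusted p on both sides, above WT at 0 hr (0.57 ± 0.19, adjusted p = 0.028) and 4 hr (0.68 ± 0.19, adjusted p = 0.0065) and below WT at 48 hr. So did *Cdkn1b* and *Rbl2* of the *Stat5a* line. Their log2 fold changes at 4 hr were -0.34 ± 0.11 and -0.25 ± 0.07, with overlap (adjusted p = 0.023 and 0.011). The KI group has 2 libraries there, and the WT group includes the library that stood apart. Mean RPKM at 4 hr was 52.5 in KI and 53.7 in WT cells for *Cdkn1b*. For *Rbl2* it was 19.1 in KI and 18.6 in WT cells, the other sign from the fold change. At 48 hr the log2 fold changes of *Cdkn1b* and *Rbl2* were 0.59 ± 0.10 and 0.49 ± 0.06 (adjusted p = 6.4e-06 and 5.8e-08).

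*Btg2* was higher in KI cells of both lines at 48 hr. It was at 23.1, 22.3, and 23.7 RPKM in WT and 48.6, 55.7, and 52.1 in KI cells of the *Stat5a* line, and at 21.1, 21.7, and 20.0 against 70.5, 66.6, and 64.7 in the *Stat5b* line. The groups lay far apart, with log2 fold changes of 1.13 ± 0.14 and 1.61 ± 0.14 (adjusted p = 3.7e-08 and 3.2e-12). *Btg1* was at 73.7, 68.4, and 68.7 RPKM in KI cells of the *Stat5a* line, with a mean of 115.7 ± 2.59 (SD, n = 3) in those of the *Stat5b* line, above the 37.1 to 46.7 of the WT libraries of both lines. Its log2 fold change of 1.45 ± 0.10 was called in the *Stat5b* line (adjusted p = 6.7e-15), and 0.71 ± 0.10 in the *Stat5a* line was short of 2-fold (adjusted p = 4e-07). The same held for *Cdkn1b*. KI cells of the *Stat5b* line had 56.7, 55.8, and 66.9 RPKM against 21.6, 24.0, and 21.8 in WT (1.34 ± 0.10, adjusted p = 3.9e-14), and KI cells of the *Stat5a* line 37.2, 36.6, and 34.4 (0.59 ± 0.10, adjusted p = 6.4e-06).

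*Cdkn2a* was at 0.791, 0.550, and 0.501 RPKM in KI against 1.25, 1.30, and 1.87 in WT cells of the *Stat5a* line, and at 0.572, 0.762, and 0.519 against 1.91, 2.60, and 2.28 for the *Stat5b* line. These groups did not overlap either, at log2 fold changes of -1.32 ± 0.31 (adjusted p = 0.00062) and -1.94 ± 0.31 (adjusted p = 1.4e-06). Before IL-2 the order was reversed in the *Stat5b* line, with 35, 28, and 35 reads in KI and 6, 17, and 3 in WT cells (1.91 ± 0.36, adjusted p = 0.0002). It was the only member called at 0 hr, where 7.98% of all genes were called for *Stat5b* and 1.04% for *Stat5a*. The count of members was 0 for *Stat5a* by edgeR, with 0 at an unadjusted p under 0.05 and 0 by DESeq2.

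3 members passed the adjusted p without reaching 2-fold at 48 hr in the *Stat5b* line. *Rbl2* was at 29.6, 26.7, and 27.5 RPKM in KI and 14.3, 15.6, and 15.0 in WT cells (0.82 ± 0.06, adjusted p = 6.3e-14). *Cdkn2c* was at 14.1, 16.8, and 11.3 against 20.5, 20.9, and 23.8 RPKM (-0.70 ± 0.18, adjusted p = 0.001), and *Rbl1* at 20.5, 21.3, and 19.7 against 25.6, 26.5, and 28.8 (-0.47 ± 0.11, adjusted p = 0.00019). None of these 3 pairs of groups overlapped. *Rbl1* of the *Stat5a* line had at 48 hr a difference of -0.12 with a 95% interval of -0.32 to 0.09, whereas at 24 hr it was at 18.7, 15.2, and 16.4 RPKM in KI and 22.4, 25.8, and 25.5 in WT cells (-0.62 ± 0.11, adjusted p = 9.1e-05). *Rb1* and *Cdkn2d* were not called in any of the 26 comparisons, though some differences between KI and WT cells passed the adjusted p. *Cdkn2d* was higher in KI cells by 0.80 ± 0.22 at 4 hr for *Stat5a* (adjusted p = 0.0087) and 0.58 ± 0.19 at 24 hr for *Stat5b* (adjusted p = 0.013). The *Stat5a* WT libraries of 4 hr include the one that stood apart, at 3.99 RPKM against 21.1 and 21.4. *Rb1* was higher by 0.30 ± 0.11 at 4 hr and 0.35 ± 0.11 at 24 hr for *Stat5b* (adjusted p = 0.032 and 0.0068), and none of these groups overlapped. At 48 hr the 95% interval of the KI difference of *Rb1* was -0.27 to 0.15 for *Stat5a* and -0.22 to 0.20 for *Stat5b*, and that of *Cdkn2d* -0.20 to 0.55 and -0.19 to 0.56.

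**Figure D2:**
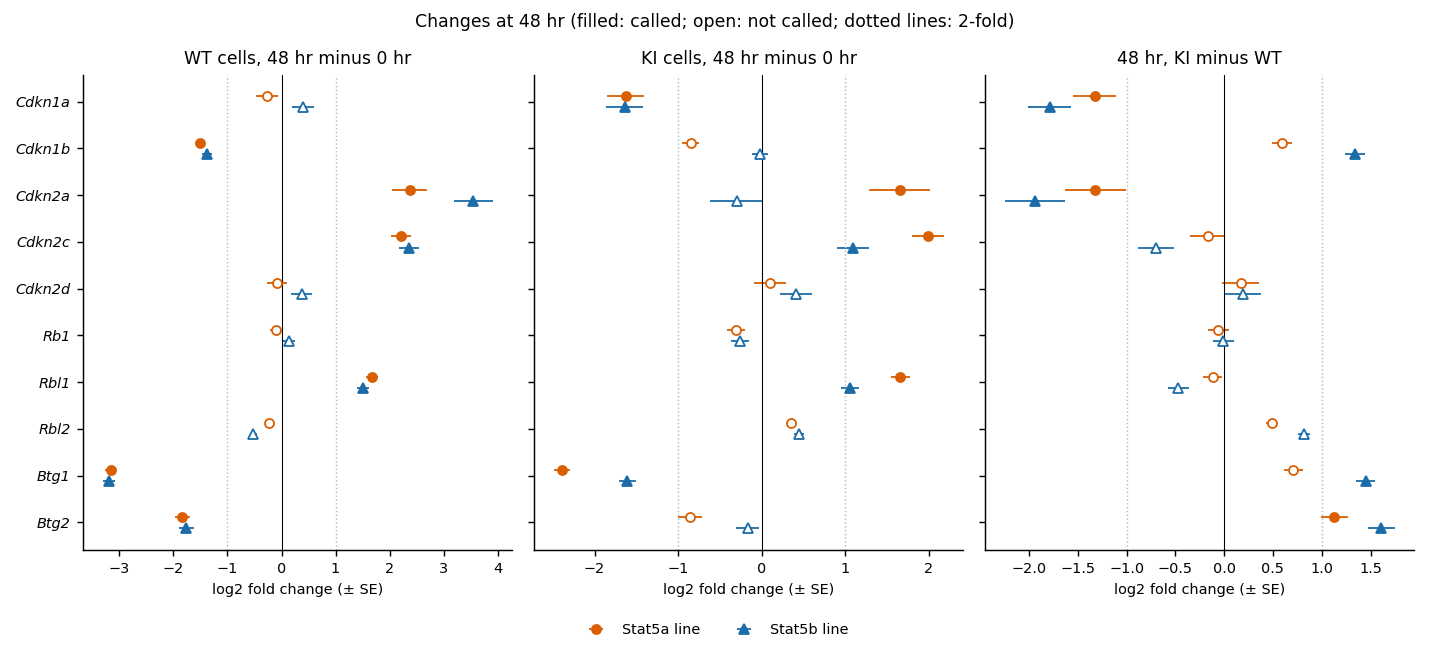
Log2 fold change of each member at 48 hr (x axis, with SE) against 0 hr in WT cells, against 0 hr in KI cells, and between KI and WT cells, for the *Stat5a* line (circles) and the *Stat5b* line (triangles). Filled symbols were called; *Cdkn1b* and *Btg2* of the *Stat5b* line are at -1.38 and -1.76 in WT cells and at -0.02 and -0.17 in KI cells.

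At 4 and 24 hr few members were called between KI and WT cells. The count was 1 at 4 hr (6.63% of all genes) and 0 at 24 hr (4.45%) for *Stat5a*, and 1 at 4 hr (10.4%) and 0 at 24 hr (16.7%) for *Stat5b*. DESeq2 gave 0 at 24 hr as well, and at an unadjusted p under 0.05 edgeR had 7 members for *Stat5a* and 8 for *Stat5b*. No share of all genes at that unadjusted p is given, here or elsewhere, so such counts cannot be weighed against it. Both calls at 4 hr were *Cdkn2a*, higher in KI cells. For *Stat5a* it rested on 25 and 16 reads against 2, 0, and 6, and it was lost without KI replicate 1 (adjusted p = 0.085) and when only the groups compared were fitted (adjusted p = 0.73). For *Stat5b* 38, 35, and 38 reads stood against 18, 15, and 17 (1.04 ± 0.33, adjusted p = 0.018), and the call was lost without WT replicate 1 (adjusted p = 0.051) or WT replicate 2 (adjusted p = 0.072). By adjusted p alone, 8 members passed at 24 hr for *Stat5b* against 50.4% of all genes, 6 of them higher and 2 lower, among them *Cdkn1b* (0.68 ± 0.10), *Btg2* (0.88 ± 0.14), and *Rbl1* (-0.80 ± 0.11). The WT library that stood apart did not decide the first of these calls (2.19 ± 0.49 for *Cdkn2a* without it, adjusted p = 0.0032).

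Members also changed from 0 hr in KI cells. *Stat5a* KI cells had 1 member called at 4 hr (17.8% of all genes), 3 at 24 hr (21.1%), and 5 at 48 hr (26.0%). *Stat5b* KI cells had 1 called at 4 hr (13.8%), 2 at 24 hr (15.8%), and 4 at 48 hr (18.8%). *Btg1* fell in KI cells each time, with log2 fold changes at 48 hr of -2.39 ± 0.10 (*Stat5a*) and -1.61 ± 0.10 (*Stat5b*). *Cdkn2c* and *Rbl1* rose at 48 hr, by 1.99 ± 0.19 and 1.66 ± 0.11 in *Stat5a* KI cells and by 1.09 ± 0.19 and 1.06 ± 0.11 in *Stat5b* KI cells (adjusted p of 7.1e-06 or lower). *Cdkn1a* fell in KI cells at 48 hr, with log2 fold changes of -1.63 ± 0.22 and -1.64 ± 0.22 (adjusted p = 5.8e-08 and 9.7e-08). *Cdkn1b* of the *Stat5b* KI cells was at 50.8, 47.2, and 61.1 RPKM at 0 hr and 56.7, 55.8, and 66.9 at 48 hr, with overlapping ranges and a 95% interval of -0.21 to 0.17 for the log2 fold change. *Btg2* in these cells went from 67.2, 71.9, and 60.5 to 70.5, 66.6, and 64.7 RPKM, also overlapping, at -0.44 to 0.10.

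Whether the change from 0 hr differed between KI and WT cells was tested directly. For *Stat5b* 2 members differed at 24 hr (10.2% of all genes) and 6 at 48 hr (21.4%). The call of *Cdkn1a* at 24 hr (-1.10 ± 0.30) was lost with all 48 libraries (adjusted p = 0.057). It was also lost without replicate 2 of KI or of WT cells at 0 hr (-0.94 each). For *Stat5a* 0 were called at 24 hr (1.59%) by edgeR and 0 by DESeq2, with 5 at an unadjusted p under 0.05, and 1 was called at 48 hr (6.25%). That member was *Cdkn1a*, at -1.36 ± 0.30 (adjusted p = 0.00088). At 48 hr in *Stat5b* cells the change was more negative in KI cells for *Cdkn1a* (-2.04 ± 0.31), *Cdkn2a* (-3.85 ± 0.48), and *Cdkn2c* (-1.27 ± 0.26), and more positive for *Cdkn1b* (1.36 ± 0.14), *Btg1* (1.59 ± 0.14), and *Btg2* (1.59 ± 0.20), with adjusted p of 0.00011 or lower. This comparison shares its libraries with those above. At 0 hr *Stat5b* KI cells stood above WT cells by 1.91 ± 0.36 for *Cdkn2a* and 0.57 ± 0.19 for *Cdkn2c*. These starting levels enter the differences of both genes. Within *Stat5b* KI cells *Cdkn2a* changed by -0.30 ± 0.32 at 48 hr (adjusted p = 0.46).

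The KI effects of the lines were also compared with each other. At 48 hr 0 members were called (2.06% of all genes) and at 24 hr 0 (2.65%), by edgeR and by DESeq2 alike, with 6 and 4 at an unadjusted p under 0.05. By adjusted p alone 3 members passed at 48 hr, against 11% of all genes, all short of 2-fold. *Cdkn1b* and *Btg1* had a KI effect larger by 0.75 ± 0.14 in the *Stat5b* line (adjusted p = 0.00047 and 0.00053), and *Rbl2* one larger by 0.33 ± 0.09 (adjusted p = 0.01). These 3 genes also passed at 24 hr, against 14.1% of all genes, at 0.42 ± 0.14, 0.45 ± 0.14, and 0.30 ± 0.09. For *Cdkn1a* the difference between the lines at 48 hr was -0.45 with a 95% interval of -1.06 to 0.15, and for *Btg2* 0.48 with 0.09 to 0.86 (adjusted p = 0.11).

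Genes that work with the members were counted at 48 hr in the same way, beside the shares of all genes given above (in WT cells 14.3% and 14.6% higher and 22.3% and 20.7% lower, and between KI and WT cells 6.35% and 16.5% higher and 2.43% and 9.81% lower, for *Stat5a* and *Stat5b*). No share of all genes is given for counts at an unadjusted p under 0.05, so these counts cannot be weighed. Of 11 kinases and cyclins, 10 rose and 1 fell in WT cells at 48 hr in both lines. The list median was 2.62 for *Stat5a* and 2.57 for *Stat5b*, where the median of all genes was -0.12 and -0.13. The gene that fell was *Ccnd1* (-3.96 and -4.50), a D-type cyclin, and the largest rise was that of *Ccnb1* (4.85 and 4.99), the mitotic cyclin. Between KI and WT cells at 48 hr 3 of the 11 were lower and 1 higher in the *Stat5a* line, and 8 lower and 1 higher in the *Stat5b* line. *Ccnd1* was the one that was higher (1.85 and 3.43), and *Cdk6*, a kinase blocked by the INK4 proteins, had the lowest value (-1.49 and -2.53). The part of other cells and of cell states in the changes of these lists, here and below, was not tested.

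All 16 E2F target genes of DNA replication rose in WT cells at 48 hr in both lines, with list medians of 2.67 and 2.88. For *Stat5b*, KI cells were below WT cells for 15 of the 16 (median -1.57), from *Gins2* at -1.91 to *Tyms* at -0.91, the one not called. For *Stat5a* 0 of the 16 were called by edgeR (15 at an unadjusted p under 0.05), and all 16 had values between -0.96 and -0.55 (median -0.75). Of 13 genes of E2F and DREAM complexes or linked to them, 5 rose in *Stat5a* WT cells and 6 in *Stat5b* WT cells. *Mybl2* was highest, at 3.50 and 3.64. Between KI and WT cells 0 of the 13 were called by edgeR for *Stat5a* (11 at an unadjusted p under 0.05). For *Stat5b* 4 were lower in KI cells (*E2f1*, *E2f3*, *Mybl2*, and *Tfdp1*).

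Most genes named for quiescence fell in WT cells. Of 13 FOXO and KLF quiescence factors, 11 fell in *Stat5a* WT cells and 10 in *Stat5b* WT cells at 48 hr, with medians of -1.43 and -1.46. *Klf4* had the largest fall (-7.98 and -7.57), and *Slfn2* was at 0.53 and 0.68 and was not called. Between KI and WT cells 2 of the 13 were higher in KI cells for *Stat5a* (*Klf2* and *Tsc22d3*) and 4 for *Stat5b* (these and *Klf4* and *Pik3ip1*). Of 9 measured genes listed for the degradation of p27, among them those of the SCF-SKP2 ligase, 3 rose in *Stat5a* WT cells. In *Stat5b* WT cells 4 rose, and *Cks1b* led in both lines (3.31 and 3.27). Against WT cells, *Skp2* and *Cks1b* were among 3 that were lower in *Stat5b* KI cells, at -1.24 and -1.71, and 0 differed between KI and WT cells by edgeR for *Stat5a* (8 at an unadjusted p under 0.05). Of 12 measured CCR4-NOT and PABP genes, partners of the BTG proteins, 1 rose in *Stat5a* WT cells and 2 in *Stat5b* WT cells, and the list medians were between -0.28 and 0.27 in these comparisons and those between KI and WT cells at 48 hr. *Pabpc4* and *Rqcd1* were called lower in *Stat5b* KI cells against WT, and 0 were called by edgeR for *Stat5a* (7 at an unadjusted p under 0.05).

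**Figure D3:**
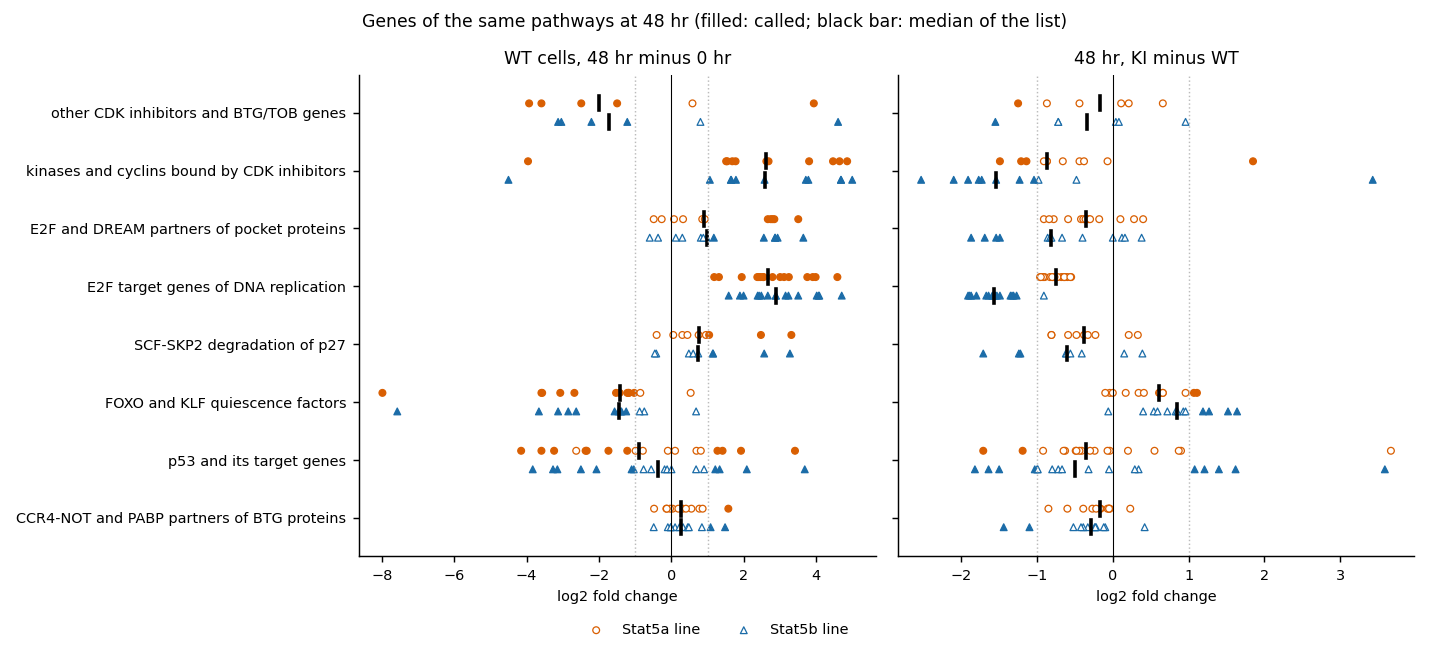
Log2 fold change at 48 hr (x axis) of each gene of 8 lists that work with or alongside the members (y axis), against 0 hr in WT cells and between KI and WT cells. Symbols are genes, filled where called, circles for the *Stat5a* and triangles for the *Stat5b* line, and black bars are list medians. The replication genes of the *Stat5b* line lie between 1.58 and 4.70 in WT cells and between -1.91 and -0.91 in KI minus WT.

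For each member the genes whose log2 CPM followed it most closely over the 47 libraries were listed among 10730 genes with a mean of at least 1 RPKM. The libraries share time and genotype, so these correlations describe the pattern only. *Cdkn2c* was followed by *Kifc5b*, *Kifc1*, and *Sapcd2* (r = 0.97 each), *Kifc1* being a mitotic kinesin. *Btg1* was followed by *Clk1* (0.99), *Pnrc1*, and *1810026B05Rik* (0.98 each), and *Btg2* by *Mxd4* (0.98), a MAX partner that opposes MYC. *Cdkn1b* was followed by *Ccpg1* (0.96), *Itga4*, and *Fbxo32* (0.95 each), and *Rbl1* by *Wdr76* and *Gbp7* (0.97 each). *Cdkn1a* had weaker partners, with *Odc1*, the first enzyme of polyamine synthesis, at 0.85. *Cdkn2a* was closest to *Snrnp25* (0.88), *Rbl2* to *Art4* (0.88), *Cdkn2d* to *9930012K11Rik* (0.83), and *Rb1* to *Ly96* (0.80). Among the members *Cdkn1b* correlated with *Btg2* at 0.87 and with *Btg1* at 0.85, and *Rbl1* with *Btg1* at -0.93.

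Markers of other cells moved along with the groups. The summed RPKM of 8 B cell markers at 48 hr was 75.2 to 158.5 in WT and 399 to 485 in KI cells of the *Stat5a* line, and 57.1 to 79.6 against 566 to 611.6 for *Stat5b*. *Cd74* was the most abundant of them, and 0 of the 8 were at 0 reads in any group. All 8 were called higher in KI cells at 48 hr in both lines. The 11 myeloid markers, with *Ctss* most abundant and 0 of them at 0 reads in any group, summed to 95.6 to 114.7 RPKM in WT and 166 to 233 in KI cells of the *Stat5a* line and to 84.8 to 88.8 against 234 to 295 for *Stat5b*, and 7 and 9 of them were higher in KI cells. The 7 CD8 T cell markers summed to 1266 to 1387 in WT and 1719 to 1876 RPKM in KI cells of the *Stat5a* line, and 0 of them were called by edgeR in each line (6 at an unadjusted p under 0.05). Of 4 CD4 T cell markers 2 were higher in KI cells for *Stat5a* and 3 for *Stat5b*, of 6 erythroid markers 0 and 6, and of 5 NK cell markers 0 and 2, with 1 lower for *Stat5b*.

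At 0 hr the B cell sum was higher still and differed between genotypes as well, at 986.5 to 1375 RPKM in WT and 2600 to 3249 in KI cells of the *Stat5b* line. *Btg1*, *Btg2*, and *Cdkn1b* did not pass the test between KI and WT cells at that time (log2 fold changes of -0.14 ± 0.10, 0.02 ± 0.14, and -0.03 ± 0.10, adjusted p = 0.35, 0.95, and 0.87). *Cdkn2a* did, as given above, and *Rb1* (0.39 ± 0.11, adjusted p = 0.007) and *Cdkn2c* (0.57 ± 0.19, adjusted p = 0.028) passed the adjusted p short of 2-fold, both higher in KI cells without overlap. The part of other cells in these differences was not tested. Of 5 markers of naive T cells, 3 were higher in *Stat5b* KI cells at 48 hr (*Il7r*, *Lef1*, and *Tcf7*), and 0 were called by edgeR for *Stat5a* (5 at an unadjusted p under 0.05, median 0.70). Of 7 memory-phenotype markers, 4 were lower and 1 higher for *Stat5b*, and 1 was lower for *Stat5a* (*Eomes*). The part of these cell states and of other cells in the members' differences at 48 hr was not tested.

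**Figure D4:**
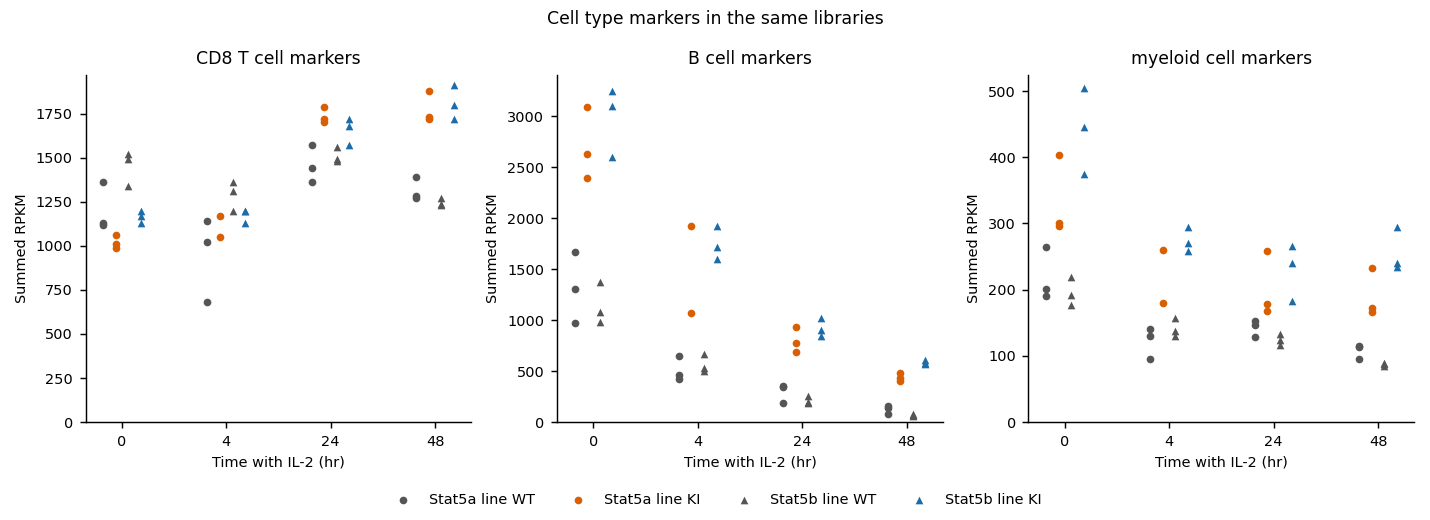
Summed RPKM (y axis, from 0) of the markers of CD8 T cells, B cells, and myeloid cells in every library used, against time with IL-2 (x axis, evenly spaced categories). Circles are the *Stat5a* line, triangles the *Stat5b* line, and WT is grey; the B cell sum of the *Stat5b* line at 48 hr is 566 to 611.6 in KI and 57.1 to 79.6 in WT cells.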

How the data were processed

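An mRNA kit and 100 ng of RNA were used for each library, read as single ends of 50 bp. The authors mapped the reads to mm10 (GRCm38) and deposited, for each library, raw counts per RefSeq transcript and the RPKM computed from those counts. The submitters' processing notes name Bowtie2 2.2.6, TopHat2 2.0.11, SAMtools 0.1.8, bedtools 2.25.0, and edgeR. The counting program and the use of strand are not given in the sources used here. No measurement of STAT5 binding was used here, and 1 marker gene of the B cell list is not reported here.

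The longest transcript of each symbol was used. Counts were fitted with edgeR 4.0.16 in R 4.3.3 (filterByExpr with a minimum count of 10, TMM, glmQLFit and glmQLFTest) over 47 libraries together, with a mean per group and no covariate. P-values were adjusted by Benjamini-Hochberg over all 15566 genes tested, and genes were called at an adjusted p of at most 0.05 and at least 2-fold. The fit was tested on simulated data. The members and lists were chosen with earlier results of these data known. Named genes are the members, the extremes of each list at 48 hr and called genes of short counts, and the genes with the highest correlation of log2 CPM (prior count 1). The labels do not say that replicates are separate animals, so p-values measure the spread between these samples. Replicate numbers are shared between groups. The correlation of same-numbered deviations was over 0.1 for every pair in 2 of the 20 comparisons, among those with 3 pairs, both of *Stat5a* WT cells (0.206, 0.273, and 0.419 at 24 hr and 0.166, 0.117, and 0.192 at 48 hr). The 2 pairs of *Stat5a* KI cells at 4 and 0 hr had 0.161 and 0.181 and were too few for this rule. Reads carry no molecular identifiers and may repeat a molecule, so depths and the floor of 3 reads cover counting error only. Alternatives were all 48 libraries, DESeq2's size factors, DESeq2 1.42.0, no filter, only the groups compared, a replicate block, each library left out, another transcript, and no fold threshold.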

Additional observations from a re-analysis of the deposited data

Results flagged for a closer look

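The change from 0 hr of 6 members differed between KI and WT cells by a test of the difference itself (the quasi-likelihood test of edgeR, adjusted by Benjamini-Hochberg over all genes), in 9 results. *Cdkn1a* differed in both lines at 48 hr, with log2 differences of -1.36 for *Stat5a* and -2.04 for *Stat5b*, and by -1.10 at 24 hr in the *Stat5b* line. The last of these was lost with all 48 libraries (-1.09, adjusted p = 0.057) and without replicate 2 of KI or of WT cells at 0 hr (-0.94 each). In the *Stat5b* line *Cdkn2a* differed by -2.36 at 24 hr and -3.85 at 48 hr, and at 48 hr *Cdkn2c* by -1.27, *Cdkn1b* by 1.36, *Btg1* by 1.59, and *Btg2* by 1.59. The values of *Cdkn2a* and *Cdkn2c* include higher levels in KI than in WT cells at 0 hr, by 1.91 and 0.57. Groups of 3 libraries are too small to single out a library by its distance from the others.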

How the results depend on the processing

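Without the fold threshold, more members passed than the counts given above. In WT cells with IL-2 they were 7, 8, and 7 at 4, 24, and 48 hr for *Stat5a* and 2, 7, and 7 for *Stat5b*. Between KI and WT cells they were 5, 4, and 6 for *Stat5a* at 4, 24, and 48 hr, and 3, 4, 8, and 8 for *Stat5b* at 0, 4, 24, and 48 hr. Of all genes, 44.3% passed by adjusted p alone between KI and WT cells for *Stat5a* at 48 hr. For *Stat5b* these shares were 50.4% at 24 hr and 63.6% at 48 hr. In KI cells with IL-2 they were 3, 7, and 9 for *Stat5a* and 4, 5, and 6 for *Stat5b*. For the difference of the changes from 0 hr they were 2 and 5 at 24 and 48 hr for *Stat5a* and 8 and 9 for *Stat5b*. For the difference between the lines they were 3 at each time, with the shares of all genes given above. For the remaining comparisons no share of all genes by adjusted p alone is given, so these counts of members cannot be weighed against it.

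DESeq2 called 4 members in *Stat5b* WT cells at 24 hr, against 3 by edgeR. With only the groups compared, 1 member was called in *Stat5a* WT cells at 4 hr and 0 between KI and WT cells of that line at 4 hr. With all 48 libraries, 0 were called between KI and WT cells of the *Stat5b* line at 4 hr and 1 in the difference of the changes from 0 hr of that line at 24 hr. With each library left out in turn, counts ranged in the *Stat5a* line from 0 to 1 between KI and WT cells at 4 and at 24 hr, from 1 to 2 in KI cells at 4 hr, and in the difference of the changes from 0 hr from 0 to 1 at 24 hr and 1 to 2 at 48 hr. In the *Stat5b* line they ranged from 1 to 2 in WT cells at 4 hr, 0 to 1 between KI and WT cells at 4 hr, 1 to 2 in KI cells at 24 hr, and 1 to 2 in the difference of the changes from 0 hr at 24 hr. The calls of *Btg2* in *Stat5a* WT cells at 24 hr and of *Cdkn2c* in *Stat5b* KI cells at 48 hr were also lost, as given below. A replicate left out of the *Stat5a* KI cells at 4 hr leaves 1 library, assumed to vary like the other groups. The cause of these changes was not tested, beyond the smaller number of libraries.

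The replicate block, applied to every comparison, moved no count of members called (6 in each line in WT cells at 48 hr, 3 and 5 between KI and WT cells at 48 hr). By the rule for 3 or more pairs, the replicate numbers pair samples in 2 comparisons, both of *Stat5a* WT cells. The block gave each replicate number a shared term across both lines and genotypes. It therefore did not model pairing within those cells alone. Of 57 called results of single members, 0 of 793 alternative values reversed and 12 lost the call, in 7 results. They were *Cdkn2a* at 4 hr (adjusted p of 0.051 to 0.73), *Btg2* in *Stat5a* WT cells at 24 hr (-0.89 without 0 hr replicate 2), *Cdkn1a* in *Stat5b* KI cells at 24 hr (-0.96 without 0 hr replicate 2) and in the difference of the changes from 0 hr there (-0.94 without KI or WT replicate 2 of 0 hr), and *Cdkn2c* in *Stat5b* KI cells at 48 hr (1.00 without replicate 2). The transcript with the highest mean RPKM moved 1 of 32 group levels by more than 1 SD. Size factors of DESeq2 shifted all genes by at most 0.068 on the log2 scale. Depth limits *Cdkn2a* most, with 0 reads in the lowest library used.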

Other observations

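Other inhibitors and p53 target genes, whose counts are not given above, were counted at 48 hr. Of all genes, 14.3% and 14.6% rose and 22.3% and 20.7% fell in WT cells (*Stat5a* and *Stat5b*), and 6.35% and 16.5% were higher and 2.43% and 9.81% lower in KI cells. Of 6 tested genes among further CDK inhibitors and BTG/TOB genes, *Cdkn1c*, *Tob1*, *Tob2*, and *Btg3* fell and *Cdkn3* rose in WT cells of both lines. *Cdkn1c*, the third CIP/KIP gene, was at -3.93 and -3.04 on the log2 scale, and *Tob1*, an antiproliferative gene of the BTG/TOB family that is also among the quiescence factors counted above, at -3.59 and -3.13. *Cdkn3*, a phosphatase of CDKs, was at 3.93 and 4.6. Between KI and WT cells *Cdkn2b* was lower in the *Stat5a* line (-1.25) and *Cdkn3* in the *Stat5b* line (-1.55).

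Of 18 genes of p53 and its targets, 4 rose and 7 fell in WT cells at 48 hr in both lines, with medians of -0.89 and -0.37. *Gtse1* was highest (3.41 and 3.68) and *Gadd45a* lowest (-4.15 and -3.83). Between KI and WT cells 2 were lower in the *Stat5a* line (*Perp* and *Phlda3*), and 5 were higher and 5 lower in the *Stat5b* line (median -0.49), from *Eda2r* at 3.59 to *Gtse1* at -1.82. *Trp53* itself was at -0.30 and -0.67 and was not called.

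The library left out of the *Stat5a* KI cells at 4 hr had 1028515 reads on the longest transcripts, 5.68% of its mapped reads. It listed *Btg1* at 2.83 RPKM, *Cdkn1b* at 1.38, *Btg2* at 0.877, and *Cdkn1a* and *Cdkn2a* at 0.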
